A study of Rattus norvegicus and Mus musculus with 24 samples.

Results

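The renin-angiotensin-aldosterone genes described here are a set of 7 chosen by their symbols: AGT, ACE, AGTR1, MME, ENPEP, NR3C2 and HSD11B2. All 7 were among the 17376 symbols listed for mouse kidney. In the rat, 4 of them (AGT, AGTR1, MME and HSD11B2) were among the 14931 symbols listed, and ACE, ENPEP and NR3C2 were not analysed here in that species. Bulk RNA sequencing covered 4 Ctns knockout (KO) and 4 control (WT) mice and 8 KO and 8 WT rats, with 1 library per animal. The mice were of the C57BL/6 background. The methods restrict primary cultures and mechanistic studies to females, and the reporting summary states the same for all experiments. The rats were Sprague-Dawley, and neither their sex nor the age of either species at tissue collection is given in the labels. Controls were littermates, and the knockout in each species is constitutive and removes cystinosin, the lysosomal cystine exporter whose loss causes cystinosis. The labels give the rats numbers from 17 to 24 and from 25 to 32, with 4 KO and 4 WT animals in each range, and do not say what separates the ranges. Each rat comparison was therefore also made within each range.

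Angiotensinogen, the product of AGT, is the precursor of angiotensin I, and angiotensin-converting enzyme (ACE) trims this to angiotensin II. Neprilysin (MME) and aminopeptidase A (ENPEP) are brush border and vascular peptidases that degrade or convert angiotensins, and the type 1 receptor (AGTR1) carries most actions of angiotensin II on vessels, tubular sodium transport and aldosterone release. Aldosterone acts in the distal nephron through the mineralocorticoid receptor (NR3C2), and 11-beta-hydroxysteroid dehydrogenase type 2 (HSD11B2) keeps glucocorticoids off that receptor by inactivating them.

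Reads on listed symbols numbered 19309449 to 44449859 per mouse and 24684097 to 40629873 per rat. Ctns itself was lower in every KO mouse than in any WT mouse (0.332 ± 0.0102 against 0.918 ± 0.0869 on the scaled read value, SD, n = 4 each). In the rats the Ctns levels of the genotypes overlapped (19.1 ± 1.86 against 22.3 ± 2.98 TMM-scaled CPM, SD, n = 8 each), so in this species the transcript level did not separate the labels. The labels name kidney cortex as the tissue and proximal tubule cells as the cell type, and their protocol speaks of microdissected tubules, whereas the methods name cortex. Markers of proximal tubule were the most abundant list, with a summed scaled value of 456 to 758 per mouse, but markers of the thick ascending limb (183 to 230) and of collecting duct principal cells (15.4 to 19.9) were also detected in each mouse. In whole tissue of this kind, fewer cells of a type and less RNA per cell cannot be told apart.

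Mouse values are reads scaled so that 1 is the upper quartile of a library, and were tested with limma on log2(value + 1), on which weakly expressed genes show less than their true change. Rat levels are given as CPM, the read count relative to library size, after TMM scaling, which sets the library sizes so that most genes do not differ (TMM-scaled CPM), and rat reads were tested with edgeR. A gene is said to have risen or fallen only where its Benjamini-Hochberg adjusted p over all symbols tested was under 0.05. In the mice, 0 of the 7 genes passed, beside 4.32% of all symbols tested. AGTR1 alone had an unadjusted p under 0.05, and edgeR (8.91% of all symbols) and DESeq2 on the recovered mouse reads also called 0 of the 7. Over the 16 rats, 0 of the 4 genes passed (27.5% of all symbols), 1 of them (AGTR1) with an unadjusted p under 0.05, and DESeq2 and limma-voom also called 0. With the number range as a covariate in edgeR, 2 of the 4 passed, AGT and AGTR1, beside 38.9% of all symbols. Among rats 17 to 24, edgeR called 0 of the 4 (7.26% of all symbols), although AGT and AGTR1 had unadjusted p-values under 0.05, limma-voom called 0 and DESeq2 called 1. In rats 25 to 32, 2 of the 4 rose, AGT and HSD11B2, beside 43.8% of all symbols, so that a share of 2 in 4 was near the background. Scaling by library totals, an alternative chosen after seeing the data, kept both calls but moved the median log2 difference of all symbols in these rats from -0.01 to 0.15 and the share of rises among the calls from 49.7% to 78.9%, and changes in this range are relative to that choice. The difference of the KO effect between the ranges was past the threshold for 1 of the 4, HSD11B2 (14.7% of all symbols). Among WT rats alone, all 4 differed between the ranges (21.1% of all symbols). The median log2 difference of the genes was -0.07 in mice, 0.03 in all rats, 0.003 in rats 17 to 24 and 0.11 in rats 25 to 32, beside 2.5e-05, -0.02, -0.002 and -0.01 over all symbols.

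Among the 4 genes measured in rats, AGT had the widest relative spread of levels, from 0.177 to 19.35 TMM-scaled CPM. In mice, the scaled values were 0.9645, 1.08, 0.987 and 1.48 in the KO kidneys and 1.58, 0.756, 1.91 and 1.13 in the WT kidneys. The WT mice held both the highest and the lowest value, so the groups overlapped fully, and limma gave a log2 difference of -0.12 (SE 0.16, adjusted p = 0.815). Among rats 17 to 24, AGT was barely expressed, with 43, 32, 30 and 34 reads in the KO and 21, 6, 19 and 30 reads in the WT libraries. In TMM-scaled CPM these were 1.37, 1.08, 1.06 and 1.05 against 0.8455, 0.177, 0.584 and 0.942. Every KO rat of this range was above every WT rat, but the log2 difference of 0.87 (SE 0.36) did not pass (edgeR, adjusted p = 0.188).

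In rats 25 to 32 the same gene gave 304, 568, 369 and 461 reads in the KO and 250, 289, 206 and 232 in the WT libraries. The KO levels were 9.46, 19.35, 11.3 and 18.7 TMM-scaled CPM and the WT levels 9.30, 7.47, 7.76 and 8.60. The groups again did not overlap, although the lowest KO rat lay just above the highest WT rat, and AGT rose by 0.82 (log2, SE 0.22, edgeR adjusted p = 0.0110). Taking all 16 rats without regard to range, the levels overlapped and the standard error grew to 0.79 around a log2 difference of 0.83 (adjusted p = 0.466). With the number range as a covariate, the difference was 0.84 (SE 0.20) and passed (adjusted p = 0.00358). The difference of the KO effect between the ranges was -0.05 (log2, SE 0.41, adjusted p = 0.945).

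The difference in AGT between the ranges was larger than that between genotypes. The 4 WT rats numbered 25 to 32 had 8.28 ± 0.83 TMM-scaled CPM and the 4 WT rats numbered 17 to 24 had 0.637 ± 0.342 (SD, n = 4 each), a ratio of 13.0. On the log2 scale this was 3.72 (SE 0.32, edgeR adjusted p = 5.8e-07). By size it ranked 28 and by p-value 38 of 11839 symbols tested. The KO rats were apart in the same way, at 14.7 ± 5.04 against 1.14 ± 0.156. Whether the ranges stand for age, sex, litter or sequencing order cannot be told apart with these labels.

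**Figure D1:**
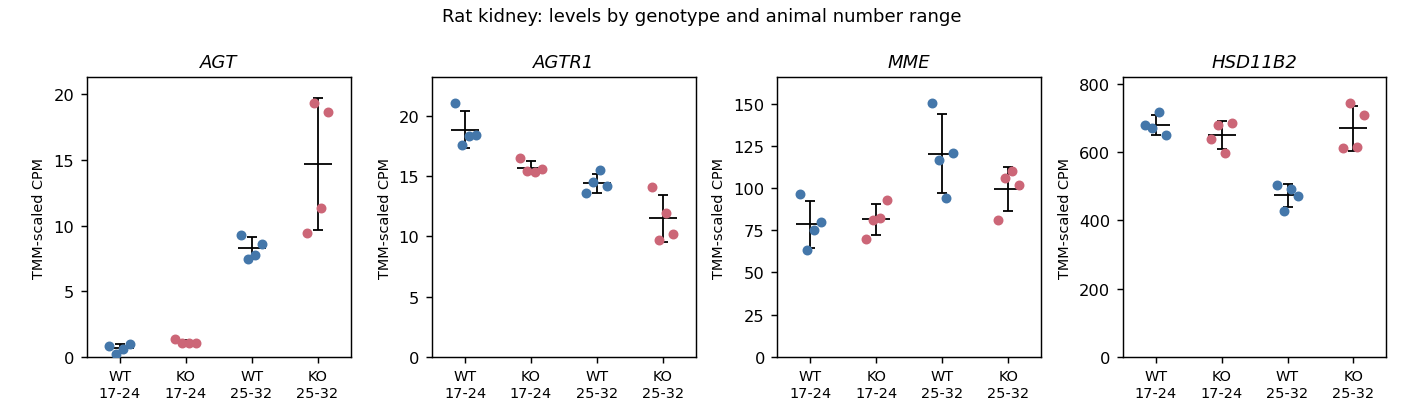
Levels of AGT, AGTR1, MME and HSD11B2 in rat kidney (vertical axis, TMM-scaled CPM, from 0) for WT (blue) and KO (red) animals of the number ranges 17 to 24 and 25 to 32. Each point is 1 rat, and the bar with whiskers is the mean with its SD over 4 rats. AGT is near 1 in the first range and between 7.47 and 19.35 in the second, and HSD11B2 is low in the WT rats of the second range alone.

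ACE, which makes angiotensin II, was measured in the mice. The KO values were 3.14, 2.86, 2.97 and 3.77 and the WT values 3.12, 2.92, 3.596 and 4.37. All but 1 of the KO mice lay within the WT range, and the log2 difference was -0.10 (SE 0.11, limma adjusted p = 0.757).

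MME was measured in both species. The KO mice had 5.58, 4.05, 5.66 and 5.21 and the WT mice 4.18, 4.76, 4.39 and 6.445, with the genotypes interleaved (log2 difference 0.05, SE 0.14, limma adjusted p = 0.962). Among rats 17 to 24, the KO levels were 69.95, 81.4, 82.0 and 92.7 TMM-scaled CPM and the WT levels 96.35, 63.0, 75.1 and 79.7. The WT rats spanned the KO rats, and the log2 difference was 0.06 (SE 0.13, edgeR adjusted p = 0.850). In rats 25 to 32, the KO levels were 80.8, 106, 109.9 and 102 and the WT levels 150.6, 117, 94.2 and 120.6. Here 3 of the 4 WT rats were above every KO rat, and the log2 difference of -0.28 (SE 0.14) did not pass (adjusted p = 0.127). It passed without WT rat 29, the one WT animal among the KO levels (log2 difference -0.38, adjusted p = 0.0366). Between the ranges, WT rats had 121 ± 23.2 against 78.5 ± 13.8, a log2 rise of 0.62 (SE 0.14, adjusted p = 0.00574).

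ENPEP had 4.33, 4.99, 5.73 and 5.01 in the KO mice and 5.15, 5.20, 4.80 and 5.12 in the WT mice. The WT mice were within a narrow band that the KO mice straddled, and the log2 difference was -0.02 (SE 0.07, limma adjusted p = 0.962). The related aminopeptidase N, ANPEP, which cuts angiotensin III further, did not pass in the mice (log2 difference 0.06, adjusted p = 0.750). Among rats 25 to 32 ANPEP fell by 0.47 on the log2 scale (SE 0.09, edgeR adjusted p = 0.00161), from 964 ± 90.9 to 697 ± 65.5 TMM-scaled CPM, with no overlap. In rats 17 to 24 its log2 difference was -0.09 (adjusted p = 0.709), and the difference between the ranges did not pass (-0.38, adjusted p = 0.0849). Mean ANPEP levels in rats 17 to 24 were 571 (KO) and 611 (WT) TMM-scaled CPM, so WT rats 25 to 32 were the highest group. Among WT rats, ANPEP was higher in the range 25 to 32 (log2 difference 0.66, edgeR adjusted p = 0.000201). The KO drop of ANPEP in rats 25 to 32 went with that of the proximal tubule markers, of which 7 of 8 tested fell there, beside 43.8% of all symbols called. Their summed levels in rats 25 to 32 were 15000 to 19500 TMM-scaled CPM in KO and 29700 to 34500 in WT rats. In rats 17 to 24 these sums were 18000 to 19700 in KO and 20500 to 25600 in WT rats, so WT rats 25 to 32 were again the highest group. Among WT rats alone, 6 of the 8 markers were higher in the range 25 to 32 and 1 was lower, beside 21.1% of all symbols called. The part of these markers in the ANPEP result was not tested.

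**Figure D2:**
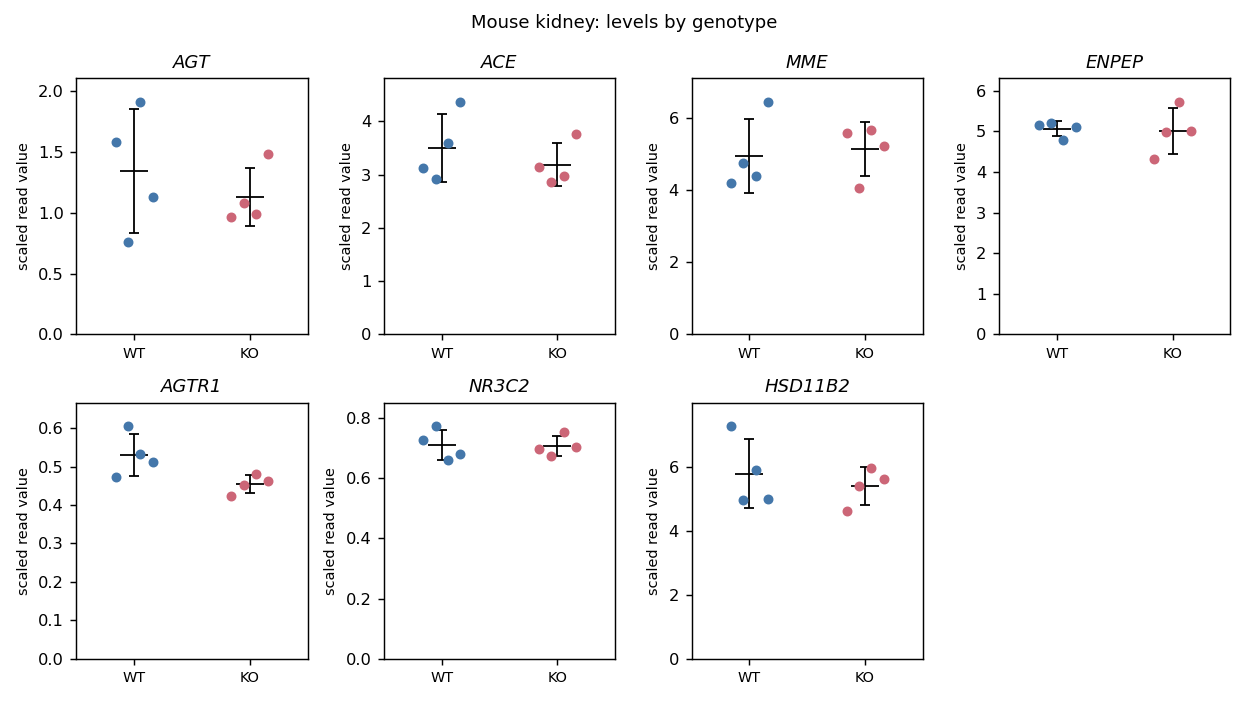
Scaled read values (vertical axis, 1 being the upper quartile of a library, from 0) of the 7 genes in 4 WT (blue) and 4 KO (red) mice. Each point is 1 mouse, and the bar with whiskers is the mean with its SD; the genotypes overlap for every gene shown, most narrowly for AGTR1.

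Rodents have a pair of type 1 angiotensin receptor genes, Agtr1a and Agtr1b, where humans have 1, and the tables, whose symbols are those of human genes, list both under AGTR1. The deposited rat value was the geometric mean of the reads of 2 genes in all 16 rats, so its log2 difference is the average of those of the pair, and a rise of one could hide a fall of the other. The mouse value was a whole read number in 6 of 8 mice and lay midway between whole numbers in the others, as an arithmetic mean of 2 genes would. An arithmetic mean follows the more abundant gene, so the AGTR1 values of the species are unlike measures. In the mouse (mm10, GENCODE vM21) Agtr1a is at chr13:30336441-30382867 on the plus strand and Agtr1b at chr3:20314473-20367177 on the minus strand. The 250 bases before the start of each rat gene are printed here as background on the 2 promoters (RefSeq, GRCr8, Agtr1a at chr17:34435433-34435682 and Agtr1b at chr2:104849263-104849512, both minus strand, 5′ to 3′). They do not bear on which genes the AGTR1 value joins, which was inferred from the symbol and the form of the value. Capitals mark matches, on either strand, to TATAAA, the core of the TATA box, to GGGCGG, a GC box, or to AGAACA, a hexamer of the elements that bind the mineralocorticoid and glucocorticoid receptors.
Agtr1a: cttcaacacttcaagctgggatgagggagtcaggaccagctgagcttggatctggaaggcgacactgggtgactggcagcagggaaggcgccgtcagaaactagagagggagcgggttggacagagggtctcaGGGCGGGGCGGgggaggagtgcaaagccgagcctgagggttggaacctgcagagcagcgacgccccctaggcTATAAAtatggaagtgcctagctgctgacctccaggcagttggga
Agtr1b: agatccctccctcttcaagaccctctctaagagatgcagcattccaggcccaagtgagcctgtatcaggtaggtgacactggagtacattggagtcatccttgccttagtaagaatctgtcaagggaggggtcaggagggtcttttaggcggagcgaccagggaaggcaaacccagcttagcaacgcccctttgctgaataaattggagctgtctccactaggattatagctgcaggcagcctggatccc
The Agtr1a stretch held TATAAA at position -45 from the start and a pair of overlapping GGGCGG at -117 and -112, and the Agtr1b stretch held none of the 3 motifs. Among 33469 rat promoters of this length, TATAAA was found in 12.9%, GGGCGG in 30.5% and AGAACA in 17.5%. A match in letters is no evidence of a used site.

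AGTR1 was lower on average in the KO animals of both species. The KO mice had 0.423, 0.452, 0.480 and 0.463 and the WT mice 0.474, 0.6055, 0.533 and 0.511. All KO mice but 1 lay under the lowest WT mouse, and the log2 difference was -0.07 (SE 0.03, limma adjusted p = 0.210), or -0.24 (SE 0.08, adjusted p = 0.0951) by edgeR on reads. Within the range 17 to 24, KO levels were 16.5, 15.45, 15.3 and 15.6 TMM-scaled CPM and WT levels 21.1, 17.6, 18.4 and 18.4. The groups did not overlap, with a log2 difference of -0.25 (SE 0.07), yet the adjusted p was 0.0610 by edgeR and 0.0309 by DESeq2. Within the range 25 to 32, KO levels were 14.1, 9.74, 11.9 and 10.2 and WT levels 13.6, 14.5, 15.5 and 14.2. Only KO rat 26 reached the WT levels.

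The log2 difference of AGTR1 in rats 25 to 32 was -0.32 (SE 0.12), with an adjusted p of 0.0565 by edgeR, 0.0371 by DESeq2 and 0.0476 by limma-voom. Without KO rat 26 it was -0.44 (adjusted p = 0.0108). Scaled by library totals in place of TMM it was -0.16 (adjusted p = 0.328). TMM factors were 0.89 to 0.95 in the WT rats of this range and 1.001 to 1.08 in its KO rats. Over all 16 rats the log2 difference was -0.29 (adjusted p = 0.0867), and with the range as covariate it was -0.30 (SE 0.07) and passed (adjusted p = 0.00341). The KO effect did not differ detectably between the ranges (-0.07, SE 0.14, adjusted p = 0.780). Among WT rats AGTR1 was lower in the range 25 to 32, at 14.4 ± 0.8 against 18.9 ± 1.52 (SD, n = 4 each, log2 difference -0.39, adjusted p = 0.010), so AGTR1 ran opposite to AGT across the ranges.

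**Figure D3:**
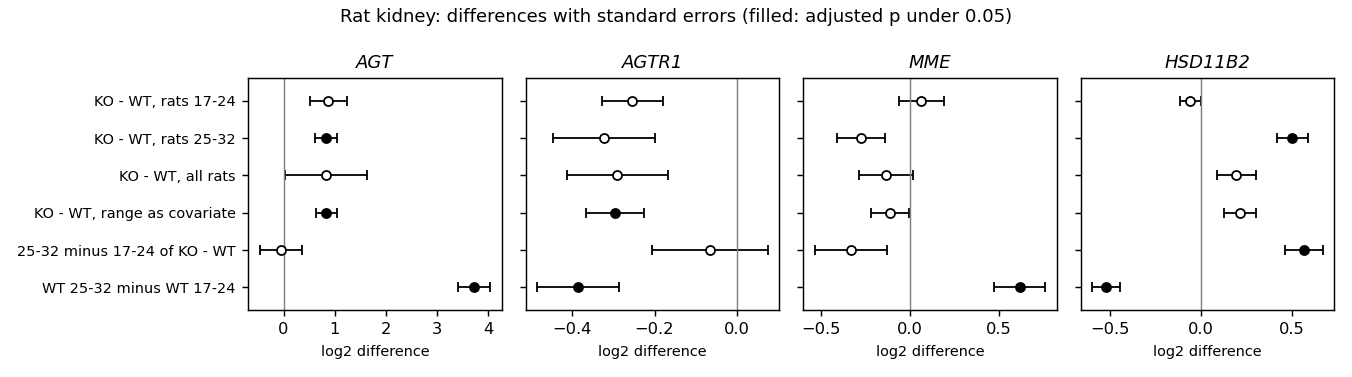
Log2 differences (horizontal axis, 1 panel per gene with its own scale) with standard errors for 6 comparisons of the rats, filled where the adjusted p was under 0.05. AGT and AGTR1 keep one sign over the genotype comparisons within the ranges, with and without the covariate, whereas HSD11B2 lies at -0.06 in rats 17 to 24 and at 0.50 in rats 25 to 32.

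NR3C2, the receptor for aldosterone, had 0.698, 0.673, 0.754 and 0.702 in the KO mice and 0.727, 0.773, 0.662 and 0.682 in the WT mice. The 4 KO values all fell inside the WT range, and the log2 difference of -0.003 (SE 0.02) was the nearest to 0 of the 7 genes (limma adjusted p = 0.962). The glucocorticoid receptor NR3C1, which binds the same elements, was likewise within its WT range in the 4 KO mice (2.47 ± 0.105 against 2.53 ± 0.491, adjusted p = 0.962).

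HSD11B2 was the 1 gene of the 4 whose KO effect was past the threshold for a difference between the ranges. The KO mice had 4.60, 5.39, 5.97 and 5.62 and the WT mice 7.27, 4.97, 5.88 and 5.01, which overlapped (log2 difference -0.08, SE 0.12, limma adjusted p = 0.851). Among rats 17 to 24, KO levels were 638, 680.0, 597 and 685 TMM-scaled CPM and WT levels 680.5, 673, 718.5 and 650.0. They overlapped too, with a log2 difference of -0.06 (SE 0.06, edgeR adjusted p = 0.667). In rats 25 to 32, KO levels were 614, 745, 615 and 709 and WT levels 504, 428, 493 and 471.5. Every KO rat of this range was above every WT rat, and HSD11B2 rose by 0.50 (log2, SE 0.08, adjusted p = 0.000812).

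The KO effects on HSD11B2 in the 2 ranges differed by 0.56 (log2, SE 0.11, edgeR adjusted p = 0.00287). The group that stood apart was the WT rats numbered 25 to 32, at 474 ± 33.3 TMM-scaled CPM. The other 3 groups had means of 650.0 ± 41.3 (KO 17 to 24), 671 ± 66.5 (KO 25 to 32) and 680.4 ± 28.5 (WT 17 to 24; SD, n = 4 each). WT rats 25 to 32 were lower than WT rats 17 to 24 by a log2 difference of -0.52 (SE 0.07, adjusted p = 9.35e-05). Over all 16 rats the log2 difference between genotypes was 0.19 (adjusted p = 0.180), and 0.22 with the range as covariate (adjusted p = 0.0585). Scaling by library totals left the calls in rats 25 to 32 (0.66) and of the difference between the ranges (0.70) past the threshold.

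HSD11B2 is made chiefly by principal cells, so the other markers of that cell were set beside it. Of 7 principal cell markers tested in rats 25 to 32, 4 rose (HSD11B2, SCNN1B, SCNN1G and GATA3) and AQP3 fell, beside 43.8% of all symbols called. None of the 7 was at 0 in any rat, and their summed level was 996 to 1120 TMM-scaled CPM in KO and 792 to 904 in WT rats, most of it HSD11B2. Leaving out HSD11B2 and the channel subunits, GATA3, a transcription factor of these cells, was at 20.2 ± 2.13 against 15.5 ± 1.68, AQP3, a basolateral water channel, at 148 ± 16.8 against 216 ± 19.9, and FXYD4, a sodium pump regulator, at 15.9 ± 1.62 against 14.2 ± 3.17 TMM-scaled CPM (KO and WT, SD, n = 4 each). ELF5, another transcription factor of these cells, was at 0.784 ± 0.266 against 0.616 ± 0.217. GATA3 rose, AQP3 fell and FXYD4 and ELF5 did not pass (adjusted p = 0.415 and 0.366), and their part in the HSD11B2 result was not tested. In rats 17 to 24, mean levels were 23.8 (KO) and 21.7 (WT) for GATA3 and 156 (KO) and 146 (WT) for AQP3. WT rats 25 to 32 were thus the lowest group for GATA3 and the highest for AQP3. Among WT rats alone, GATA3 was lower and AQP3 higher in the range 25 to 32 (edgeR).

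Beyond the 7 genes, 5 lists of the wider pathway were counted. Of all symbols tested in mice, 4.32% were called by limma and 8.91% by edgeR, and the mouse list counts stand beside these shares. The genes named from these counts outside the set of always named genes were chosen after their values were seen. In the mice, 15 symbols of angiotensin enzymes and receptors were tested and 0 passed by limma, 3 with an unadjusted p under 0.05, and the median log2 difference was 0.004 beside 2.5e-05 over all symbols. In the list of juxtaglomerular cells and their control 0 of 9 passed, in the list of mineralocorticoid handling and targets 0 of 24, and in that of aldosterone synthesis 0 of 2, all by limma, with 0, 4 and 0 at an unadjusted p under 0.05 and medians of 0.009, 0.04 and -0.0009. By edgeR on mouse reads, 0 of 9 angiotensin, 0 of 9 juxtaglomerular and 0 of 1 aldosterone synthesis genes passed, and 1 of 24 in the mineralocorticoid list rose. It was TSC22D3, a leucine zipper protein induced by corticosteroids (log2 difference 0.50, adjusted p = 0.0183). Of 14 kinin, natriuretic peptide and endothelin genes 1 rose by limma, EDN1, the precursor of the vasoconstrictor endothelin-1. Its scaled values were 0.0544 ± 0.00355 in the KO and 0.0376 ± 0.00659 in the WT mice without overlap (limma adjusted p = 0.0488). By edgeR on mouse reads EDN1 did not pass (log2 difference 0.49, adjusted p = 0.118), and the limma call was lost on leaving out 7 of the 8 mice in turn (adjusted p up to 0.125). Of the 9 genes of this list tested by edgeR on reads, EDNRB, an endothelin receptor, rose (0.46, adjusted p = 0.01215) and NPR2, a natriuretic peptide receptor, fell (-0.34, adjusted p = 0.0215), neither of which passed by limma.

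In the 16 rats, EDN1 rose as well, by 0.68 (log2, SE 0.21, edgeR adjusted p = 0.0214), to 2.77 ± 0.770 from 1.73 ± 0.482 TMM-scaled CPM (SD, n = 8 each). It was the 1 gene called of 12 tested in its list, beside 27.5% of all symbols. With the range as a covariate, 4 of the 12 passed, beside 38.9% of all symbols. EDN1 (0.66), the kininogen gene KNG1 (0.57, edgeR adjusted p = 0.0372) and the bradykinin receptor BDKRB2 (1.08, adjusted p = 0.02955) rose and KLK1 (-1.08, adjusted p = 0.00194) fell. By limma in mice and edgeR without the covariate in rats, EDN1 was the only gene of the 5 lists called in both species. The median of its list was 0.0001 in mice and 0.09 in rats. Of 8 angiotensin enzymes and receptors tested in all rats, 0 passed by edgeR, 2 with an unadjusted p under 0.05, and the median log2 difference was -0.17 beside -0.02 over all symbols. With the range as a covariate, 4 of these 8 fell, beside 38.9% of all symbols that rose or fell. They were AGTRAP (-0.23, edgeR adjusted p = 0.00341), ANPEP (-0.28, 0.0152), CTSA (-0.22, 0.00856) and KLK1. Of 2 aldosterone synthesis genes 0 passed by edgeR with or without the covariate, and 0 had an unadjusted p under 0.05 without it (median 0.08). Of 9 juxtaglomerular genes, PTGES rose and PTGS2 and NOS1 fell, with a median of -0.11, a count near the share of 27.5% over all symbols. With the covariate PDE3B fell as well (-0.43, edgeR adjusted p = 0.009065). PTGS2, the inducible cyclooxygenase of the macula densa, was at 1.79 ± 0.589 against 3.17 ± 1.51 TMM-scaled CPM (log2 difference -0.83, adjusted p = 0.0375), a call lost on leaving out any of 9 of the 16 rats (adjusted p up to 0.0929), with limma-voom (0.0659) and with library totals (0.0596). Mean PTGS2 levels were 1.55 (KO) and 2.10 (WT) in rats 17 to 24 and 2.03 (KO) and 4.25 (WT) in rats 25 to 32. WT rats 25 to 32 were thus the highest group, and PTGS2 was higher in them than in WT rats 17 to 24 (edgeR). That call between WT ranges was lost on leaving out any of 4 of the 16 rats. NOS1, the neuronal nitric oxide synthase of the macula densa, had the largest fall of that list, with 0.928 ± 0.470 against 2.31 ± 0.637 (log2 difference -1.31, SE 0.27, adjusted p = 0.00211). PTGES, a prostaglandin E synthase, had its largest rise, with 37.7 ± 5.34 against 25.8 ± 4.44 (log2 difference 0.55, SE 0.11, adjusted p = 0.00128). The KO effects on NOS1 and PTGES differed between the ranges by -1.31 (adjusted p = 0.0425) and 0.70 (adjusted p = 0.00288), that on NOS1 not past the threshold without any 1 of 12 of the 16 rats (adjusted p up to 0.0919), with limma-voom (0.0627) or with library totals (0.0696).

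In the list of mineralocorticoid handling and targets, 18 genes were tested in the rats, of which SCNN1B rose and H6PD and PRSS8 fell, with a median of 0.002. Over all symbols 27.5% were called, or 38.9% with the range as a covariate. With the range as a covariate, SCNN1G rose (0.24, adjusted p = 0.001035) and HSD11B1 fell (-0.29, adjusted p = 0.0224) as well. SCNN1B encodes the beta subunit of the epithelial sodium channel, a target of aldosterone. Its levels in rats 25 to 32 were 106 to 112 TMM-scaled CPM in KO and 70.8 to 79.1 in WT kidneys without overlap (log2 difference 0.57, SE 0.06, adjusted p = 3.3e-05). SCNN1G, the gamma subunit, rose in the same rats by 0.37 (SE 0.06, adjusted p = 0.000636), while SCNN1A, the alpha subunit, did not pass (0.25, SE 0.10, adjusted p = 0.0629), except with library totals (0.42, 0.0128) or without KO rat 32 (0.30, 0.045) or WT rat 25 (0.34, 0.0154). Among rats 17 to 24 the log2 differences were 0.14, 0.13 and 0.08 for the beta, gamma and alpha subunits, none of which passed. The effects differed between ranges for SCNN1B (0.44, adjusted p = 0.00983) and SCNN1G (0.24, adjusted p = 0.0423), the latter lost on leaving out any of 12 of the 16 rats (adjusted p up to 0.0894). Mean SCNN1B levels were 97.5 (WT 17 to 24), 107 (KO 17 to 24), 110 (KO 25 to 32) and 73.8 (WT 25 to 32) TMM-scaled CPM. Those of SCNN1G were 98.9, 107, 91.4 and 71.0 in that order. WT rats 25 to 32 were the lowest group for both genes, and both fell from WT rats 17 to 24 to WT rats 25 to 32 (edgeR). SGK1, the kinase through which aldosterone holds these channels at the membrane, did not pass in all rats (0.35, adjusted p = 0.363). In mice, 3 of 4 KO animals were above every WT animal (3.46 ± 0.575 against 2.09 ± 0.684), and SGK1 did not pass with all 8 mice (adjusted p = 0.123) but did without WT mouse 2 (0.0459).

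HSD11B1, which regenerates active glucocorticoid and so opposes HSD11B2, went the other way in rats 25 to 32. It was at 387 ± 38.8 TMM-scaled CPM in the KO and 564 ± 30.02 in the WT rats of that range without overlap, and it fell by 0.54 on the log2 scale (SE 0.08, edgeR adjusted p = 0.000364). Within the range 17 to 24 its log2 difference was -0.03 (adjusted p = 0.930), and the effects differed by -0.51 (adjusted p = 0.0243). That difference was not past the threshold without KO rat 28 (adjusted p = 0.0521), without WT rat 21 (0.0506) or with library totals (-0.37, 0.0688). Mean HSD11B1 levels in rats 17 to 24 were 304 (KO) and 312 (WT) TMM-scaled CPM, so WT rats 25 to 32 were the highest group. Among WT rats, HSD11B1 was higher in the range 25 to 32 (log2 difference 0.86, edgeR adjusted p = 1.39e-05). H6PD, which supplies NADPH to HSD11B1, fell in rats 25 to 32 by 0.68 (adjusted p = 0.000147), to 73.6 ± 5.20 from 118 ± 12.2. The effects on H6PD differed between the ranges by -0.45 (adjusted p = 0.0186), but not past the threshold with library totals (-0.31, 0.101). HSD11B1 is also a proximal tubule gene in the rat, and the fall of the proximal tubule markers in these animals, given above, went with that of HSD11B1 and H6PD; the part of these markers was not tested.

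**Figure D4:**
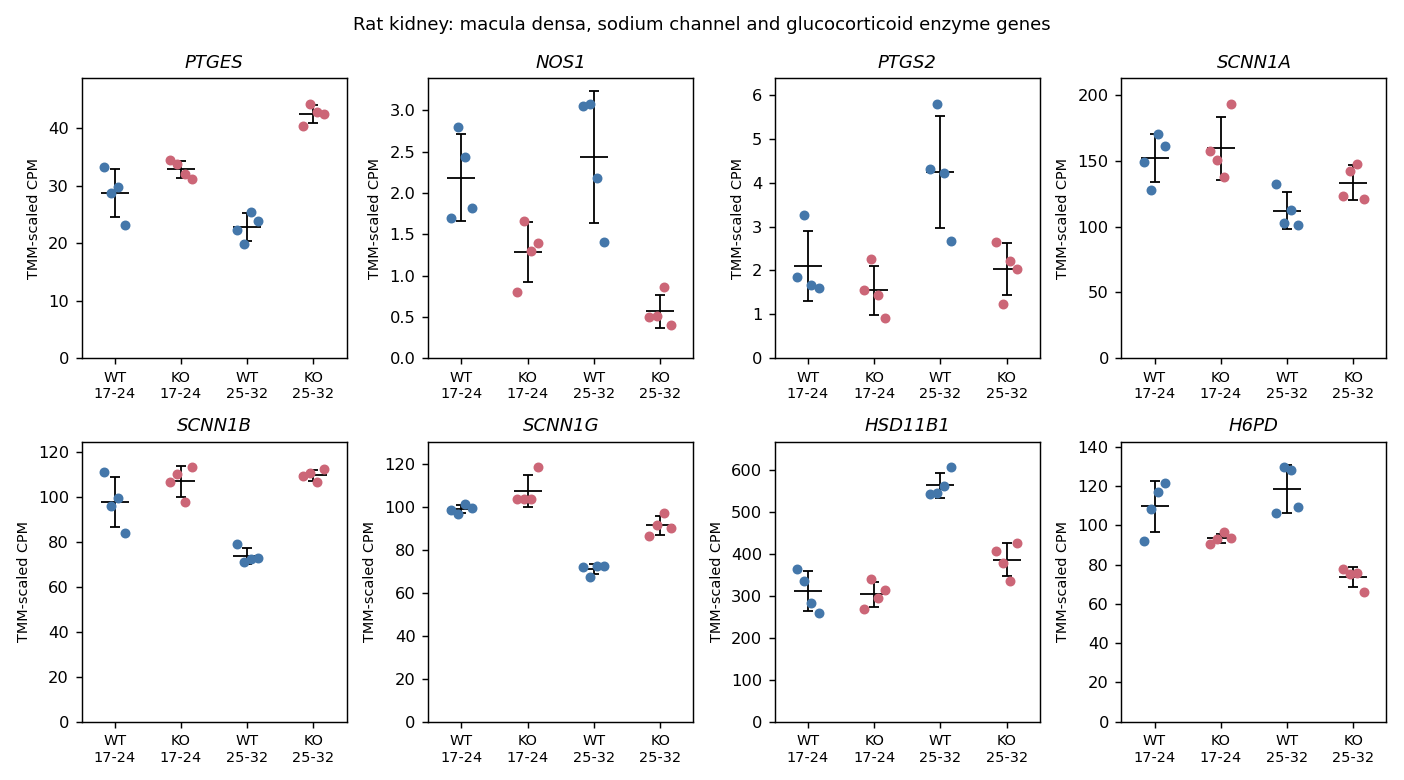
Levels of PTGES, NOS1, PTGS2, the sodium channel subunits SCNN1A, SCNN1B and SCNN1G, HSD11B1 and H6PD in rat kidney (vertical axis, TMM-scaled CPM, from 0), with points, bars and whiskers for single rats, means and SD over 4 rats of each genotype and number range. KO and WT rats 25 to 32 do not overlap for PTGES, NOS1, PTGS2, SCNN1B, SCNN1G, HSD11B1 and H6PD, and those numbered 17 to 24 do not overlap for NOS1 and SCNN1G. PTGES, NOS1, H6PD and SCNN1B were named for the largest rise or fall of their lists over all rats, so their separation follows in part from that choice. How many of all symbols do not overlap was not counted.

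Within rats 25 to 32, the list counts were higher, as was the share called over all symbols (43.8%). Counts near that share are no result about a list. Of 8 angiotensin enzymes and receptors, THOP1 rose and AGTRAP, ANPEP, CTSA and KLK1 fell. AGTRAP, which draws the type 1 receptor into the cell, fell by 0.37 (log2, adjusted p = 0.000793), and KLK1, tissue kallikrein, by 2.03 (adjusted p = 4.7e-05). KLK1 belongs to a rodent family of near copies that may share reads, so its value is uncertain. Of 9 juxtaglomerular genes, PTGES rose and PTGS2, NOS1, PDE3B and CREBBP fell. Of 18 mineralocorticoid genes 2 rose (SCNN1B and SCNN1G) and 4 fell (HSD11B1, H6PD, CUL3 and PRSS8), of 12 kinin, natriuretic peptide and endothelin genes 4 rose (KNG1, NPR2, EDN1 and EDNRA) and KLK1 fell, and of 2 aldosterone synthesis genes CYP11A1 rose. Among the 48 symbols of the 5 lists tested in rats 17 to 24, edgeR called 0 (7.26% of all symbols), and 8 had an unadjusted p under 0.05. DESeq2 called NOS1 there (adjusted p = 0.047). The list medians in rats 25 to 32 were -0.20, -0.03, -0.006, 0.17 and 0.43 in that order, beside -0.01 over all symbols.

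The same kidneys differed in cell markers. Over all symbols, 43.8% were called in rats 25 to 32, 7.26% in rats 17 to 24 and 4.32% in the mice. The marker counts stand beside these shares, and the endothelial and podocyte counts in rats 25 to 32 were under theirs. In rats 25 to 32, rises were called for 5 of 6 fibroblast, 6 of 7 macrophage, 4 of 4 lymphocyte and 6 of 6 tubular injury markers tested, and the summed injury level was 3860 to 5780 TMM-scaled CPM in KO and 401 to 477 in WT rats. Falls were called for 7 of 8 proximal tubule markers, 2 of 5 endothelial and 1 of 6 podocyte markers. Of the 8 proximal tubule markers, 6 were higher in WT rats 25 to 32 than in WT rats 17 to 24 and 1 was lower, beside 21.1% of all symbols called. Other lists moved in both directions or little: 1 of 6 straight tubule markers rose and 3 fell, 1 of 4 thick limb markers rose and 1 fell, 2 of 5 distal tubule markers rose and 1 fell, 2 of 5 mural cell markers rose, and 0 of 4 intercalated cell and 0 of 1 adrenal cortex markers passed. Rats numbered 17 to 24 had rises called for 5 of 6 injury, 5 of 7 macrophage, 2 of 6 fibroblast and 2 of 4 lymphocyte markers, and falls for 2 of 8 proximal tubule markers. In the mice, rises were called for 5 of 7 injury, 4 of 8 macrophage and 4 of 6 fibroblast markers, and 0 of 10 proximal tubule and 0 of 9 principal cell markers passed. The part of these shifts in the AGT, AGTR1 and HSD11B2 values was not tested.

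The KO effects of mouse and rat were compared in a model of all 24 animals, in which the rat libraries were scaled to their upper quartile as well. For 0 of the 4 genes listed in both did the effects differ (3.17% of all symbols), 0 had an unadjusted p under 0.05, and edgeR on reads also called 0. The differences of rat minus mouse effects on log2(value + 1) were 0.21 for AGT (adjusted p = 0.498), 0.01 for AGTR1 (0.927), -0.10 for MME (0.801) and 0.31 for HSD11B2 (0.336, limma). By edgeR on reads the differences were 1.14 for AGT (adjusted p = 0.641), -0.02 for AGTR1 (0.969), -0.14 for MME (0.821) and 0.34 for HSD11B2 (0.359). For AGTR1 the values of the species are unlike measures, as given above, so its small differences do not show that the species agree. With rats 25 to 32 as the only rats, the effect on HSD11B2 differed from that in mice by 0.59 (limma adjusted p = 0.00649).

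Levels can be set against each other within a species only per length of transcript, which was done in the mouse with the joined exons of GENCODE vM21 on mm10. In RPKM (reads per kilobase of exon, scaled to the reads on all listed symbols), WT mice had 148 ± 28.8 for HSD11B2 (chr8:105518755-105523988, plus strand), 50.6 ± 1.35 for ENPEP (chr3:129269175-129332720, minus) and 33.5 ± 13.1 for AGT (chr8:124556534-124569706, minus; SD, n = 4 each). They had 31.2 ± 5.76 for ACE (chr11:105967945-105989964, plus), 20.1 ± 4.08 for MME (chr3:63241537-63386030, plus) and 5.16 ± 0.309 for NR3C2 (chr8:76899442-77245012, plus). HSD11B2 and NR3C2 stood clear of their neighbours in this order in every WT mouse. The lowest ENPEP of a WT mouse (48.7) was only just above the highest AGT (48.3). AGT, ACE and MME overlapped, and their order is not settled by 4 mice. Joined exons count bases that a given transcript may lack, so these levels are low estimates where isoforms are many.

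Genes with the most similar pattern were sought over the 16 rats, among 10827 symbols, as the Pearson correlation of deviations from the mean of the genotype and range group. The values are descriptions without a test, and the points share libraries and depth. AGT was followed by PPP1R1B (r = 0.884), ASPG (0.860) and MEP1B (0.842), the last a brush border protease. AGTR1 was followed by ZNF280C (0.881), FUT8 (0.844) and CD28 (0.83), MME by GAS7 (0.878), EGLN3 (0.859) and IGF2BP2 (0.828), and HSD11B2 by LEMD2 (0.930), WDR46 (0.905) and TFEB (0.884). Among the 4 genes themselves, AGT and AGTR1 ran most opposite (r = -0.684), and AGT and MME most alike (0.448).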

How the data were processed

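The 7 genes, the lists and the tests were chosen with earlier results of these data known, so no list count is independent support. The submitters' processing notes name bcl2fastq 2.20, STAR 2.7.3, DESeq2 1.24.0, R 3.6.1 and the builds rn5 and mm10; the counting method is not given in the sources used here. For the mouse the authors deposited a scaled signal, which the values show to be reads plus 0.5 over the upper quartile plus 0.5, and whole reads were recovered for 99.0% of values (tolerance 0.01). The rat table holds estimated counts from the authors, which are reads plus 0.167, and 97.7% of values were whole after this was taken off; all were rounded. Symbols that join rodent genes, such as AGTR1, hold means and are uncertain to that extent. Samples were grouped by the genotype in the labels. In R 4.3.3, mouse values were tested with limma 3.58.1 (trend, robust, log2(value + 1), no filter) and rat reads with edgeR 4.0.16 (quasi-likelihood, robust, TMM, filterByExpr), each over the whole table, without a covariate unless stated, with Benjamini-Hochberg adjustment at 0.05. The standard error in edgeR is the log2 difference over the square root of F. The difference between species used limma on log2(value + 1). Some of the limma and edgeR fits within a species were tested on simulated data, and the other steps were not. No 2 libraries of a group agreed within sampling noise (chi-square per degree of freedom of at least 8.60). Whether the animals are independent litters is not stated, so p-values measure the spread between these animals. Depth covers counting error only; the number of animals limits the group differences. Alternatives were edgeR and DESeq2 1.42.0 on mouse reads, a pseudocount of 0.1, filters, limma-voom, DESeq2 and its size factors, library totals (added after the data were seen), the range as covariate, and leaving out each animal. Some planned results are not reported here. Named were the 7 genes, 12 others fixed by symbol, genes of the 5 lists called in both species or with the largest rise or fall past the threshold at an average of at least 1 CPM, and the 3 symbols most like each rat gene.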

Additional observations from a re-analysis of the deposited data

Results flagged for a closer look

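In the rats, the KO effect differed between the ranges (25 to 32 minus 17 to 24, edgeR, log2) for HSD11B2 (0.563, adjusted p = 0.00287), SCNN1B (0.436, 0.00983), SCNN1G (0.243, 0.0423), PTGES (0.696, 0.00288), HSD11B1 (-0.514, 0.0243), H6PD (-0.454, 0.0186) and NOS1 (-1.31, 0.0425). Between species (rat minus mouse on log2(value + 1), limma), it differed for CTNS (0.468, adjusted p = 1.4e-07), whose transcript fell more in the KO mice, and for NOS1 (-0.0488, 0.0428). The latter was not past the threshold without any 1 of 16 of the 24 animals (adjusted p up to 0.114, without KO mouse 6), by edgeR on reads (0.0556) or with rats 17 to 24 as the only rats (0.219).

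Single animals stood far from the rest of their group, by Dixon's ratio of gap to range, in the following cases. Among KO rats 17 to 24, rat 18 had 1.37 TMM-scaled CPM of AGT where the other 3 had 1.05 to 1.08. The same rat had 433 of SGK1, where the other 7 KO rats had 126 to 192 and the others of its range 137 to 160. KO rat 24 had 118 of SCNN1G (others of its range 103 to 104), and KO rat 22 had 97.5 of SCNN1B (other KO rats 106 to 113). WT rat 19 had 233 of ATP6AP2 (others of its range 255 to 258) and 3.27 of PTGS2 (1.60 to 1.85). WT rat 31 had 1100 of ANPEP (901 to 930), WT rat 27 had 67.4 of SCNN1G (71.8 to 72.5), and WT rat 17 had 0.0403 of AGTR2, a single read where every other rat had 0. KO mouse 6 had scaled values of 2.79 for ATP6AP2 (other KO mice 2.26 to 2.32) and 0.109 for NOS1 (0.0883 to 0.0908), and WT mouse 1 had 1.05 for PTGES (0.625 to 0.683). The ratio was taken in 160 groups, which overlap in part because a genotype and its number ranges were both used. It marked 14 of them, and chance alone marks about 1 group in 20.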

How the results depend on the processing

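No paired analysis was made, because the labels do not say which KO and WT animals were littermates. Of 140 values of the 7 genes under other settings, 130 kept direction and side of the threshold, 6 came to pass and 0 ceased to, and of 408 with 1 animal left out, 391 did, 2 came to pass and 0 ceased to. The adjusted p ranged over all settings from 0.000909 to 0.0385 for AGT and from 3.29e-07 to 0.00313 for HSD11B2 in rats 25 to 32.

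Called mouse symbols numbered 1198 with edgeR and 1520 with DESeq2 on recovered reads, against 751 with limma, and 352 to 683 without 1 mouse. Called symbols without 1 animal numbered 504 to 930 in rats 17 to 24, 1010 to 2392 for the difference between ranges and 181 to 478 between species. The difference between ranges called 2656 with library totals against 1745, of which 86.9% against 48.2% were positive. With library totals, positive calls made up 79.4% against 55.3% in all rats and 22.3% against 55.4% between WT ranges. Between species, rats 25 to 32 alone gave 2812 symbols and 1 of the 4 genes. DESeq2 called 1 of the 4 in rats 17 to 24, and the range covariate called 2 over all rats. The causes were not tested.

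Changes of sign concerned values not past the threshold. With library totals, ATP6AP2 became 0.0259 over all rats, 0.0801 in rats 25 to 32 and 0.099 for the difference between ranges, where AGT became 0.0877 and AGTR1 0.0789, and H6PD became -0.0203 between WT ranges. Between species AGTR1 became -0.0212 with edgeR and -0.0161 with a pseudocount of 0.1, and with rats 17 to 24 alone PTGES became -0.0417 and EDN1 -0.0114. Leaving out 1 animal gave, in mice, -0.0729 to 0.0392 for ENPEP, -0.017 to 0.0142 for NR3C2, -0.0745 to 0.0684 for NR3C1, -0.0181 to 0.0544 for ATP6AP2, -0.011 to 0.163 for MME and -0.133 to 0.0232 for HSD11B2. In rats 17 to 24 it gave -0.109 to 0.0555 for HSD11B1, -0.0306 to 0.171 for MME and -0.028 to 0.142 for SCNN1A, and in rats 25 to 32 -0.0731 to 0.452 for SGK1. The difference between ranges ran from -0.333 to 0.284 for AGT, -0.887 to 0.0386 for SGK1 and -0.182 to 0.00656 for AGTR1. Between WT ranges, EDN1 ran from -0.301 to 0.158 and SGK1 from -0.164 to 0.544, and between species AGTR1 from -0.0124 to 0.0286. A depth of 6 to 43 reads per library limits AGT in rats 17 to 24.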

Other observations

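CYP11A1, which starts steroid synthesis by cutting the side chain of cholesterol, had 0 to 5 reads per mouse but 178 to 555 reads in 14 of the 16 rats. In the remaining rats, KO 22 and KO 24, it had 10 and 11 reads, or 0.352 and 0.340 TMM-scaled CPM, where KO rats 18 and 20 had 10.1 and 13.9 and the WT rats of that range 9.07 to 13.8. CYP11A1 was singled out after its values were seen, and what sets the pair apart was not tested. In rats 25 to 32 it was at 12.65 ± 3.30 in the KO and 6.82 ± 0.713 in the WT kidneys (SD, n = 4 each, log2 difference 0.90, edgeR adjusted p = 0.0023) without overlap. CYP11B1 and CYP11B2, which complete corticosterone and aldosterone, had identical rows in the rats and were at 0 in at least 1 rat. AGTR2, the type 2 receptor, had 3 to 6 reads in the KO and 0 to 4 in the WT mice (limma adjusted p = 0.103), and 1 read in 1 of the 16 rats. MAS1, the receptor for angiotensin 1-7, was at 0.253 ± 0.138 TMM-scaled CPM in the KO and 0.228 ± 0.0774 in the WT rats (SD, n = 8 each).

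The product of whole read numbers behind the rat AGTR1 value, being the square of a geometric mean, split in 1 way only into a pair with at least 40 reads each in 8 of the 16 rats. In these the smaller number was 73 to 183 and the larger 1116 to 2723. Which of Agtr1a and Agtr1b is the larger is not given by the value.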
